A study of Mus musculus with 6 samples.

Results

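The genes of the mitochondrial ribosome were examined in muscle stem cells of the mdx mouse, a dystrophin-deficient model of Duchenne muscular dystrophy. Every gene of the count table whose symbol was Mrpl (large subunit) or Mrps (small subunit) followed by digits and at most one letter was taken, pseudogenes excluded, which gave 77 of 47069 genes, 48 of the large and 29 of the small subunit. The cells were cultured as satellite cell-derived myoblasts and received either 10 μM PSB-KD107, an agonist of the G protein-coupled receptor Gpr18, or vehicle, which the study's methods describe as DMSO diluted in buffer. Each group held 3 libraries, and the labels give a treatment of 2 days, whereas the methods describe an overnight one. All cells of both groups carried the mdx mutation, so there was no wild-type group. According to the methods, the myoblasts came from 3 mice and had been sorted as negative for Sca-1, CD45, CD31 and CD11b and positive for Itgb1 and Itga7. The methods describe young adult male mdx mice on the C57BL/10 background for the injected animals and do not say whether the mice that gave the myoblasts were of the same age and sex. Which mouse gave which library is not given in the sources used here. The libraries are called by their number in the table's columns, 1, 2 and 4 in each group.

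Mitochondrial ribosomes sit in the mitochondrial matrix and translate the few mRNAs encoded by mitochondrial DNA, all of which specify subunits of the oxidative phosphorylation complexes. Their rRNAs are transcribed inside the organelle, whereas all of their proteins are encoded in the nucleus, made in the cytosol and imported. Some of these proteins descend from bacterial ribosomal proteins and others were added only in the mitochondrial lineage. Skeletal muscle relies on this machinery for its oxidative capacity.

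Promoters were examined for what the members share beyond their names. RefSeq windows (GRCm38.p6, from 250 bases before to 50 after the gene's RefSeq start) were at hand for 68 of the 77 members. Of these 68 members 65 had a single window, and a gene was counted if any of its windows held the letters. The letters bound by nuclear respiratory factor 1 (NRF1) are GCGCA and GCGC with 1 further base between them. They were found on either strand in 13 of the 68 members (19.1%). This compares with 5.19% of all genes with a window and 11.5% of such genes tested here. The ETS family letters CCGGAAG stood in 25 members (36.8%, against 9.93% and 19.5%), and the YY1 letters AAGATGGCG in 8 (11.8%, against 1.64% and 3.47%). For the SP1 letters GGGGCGGGG the members, at 13 of 68 (19.1%), lay between all genes (12.9%) and the genes tested (24.9%). Matches of different motifs shared bases in 0 members, and a match describes the letters only. The NRF1 letters occurred in 10 of 42 large subunit members with a window (23.8%) and in 3 of 26 small subunit members (11.5%).

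The windows of the 4 members with the smallest p-values are printed from 5′ to 3′ on the strand of the gene, with motif letters in capitals, because the values of these genes are described first. They lie at chr3:32736706-32737005 on the minus strand (Mrpl47), chr17:35916391-35916690 on the minus strand (Mrps18b), chr11:59202236-59202535 on the plus strand (Mrpl55) and chr11:120484387-120484686 on the plus strand (Mrpl12). The window of Mrps11, at chr7:78782881-78783180 on the plus strand, is added because it carries the YY1 letters and overlaps the window of a second member, Mrpl46, which faces the other way. The capitals mark the SP1 and then the ETS letters in Mrps18b, the NRF1 letters in Mrpl12 and the YY1 letters in Mrps11, each read on the strand opposite to the gene. The windows of Mrpl47 and Mrpl55 held none of the 4 motifs. Gene spans given below come from GENCODE, whose starts can differ from those of RefSeq. The window of Mrpl47 lies inside its GENCODE span, so the sequence around the GENCODE start of this gene was not searched.
Mrpl47: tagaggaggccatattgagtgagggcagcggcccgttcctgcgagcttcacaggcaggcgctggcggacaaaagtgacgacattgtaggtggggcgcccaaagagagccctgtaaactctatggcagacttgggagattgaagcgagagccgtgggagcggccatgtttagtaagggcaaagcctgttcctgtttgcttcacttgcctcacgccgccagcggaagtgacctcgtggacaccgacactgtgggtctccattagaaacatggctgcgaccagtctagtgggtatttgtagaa
Mrps18b: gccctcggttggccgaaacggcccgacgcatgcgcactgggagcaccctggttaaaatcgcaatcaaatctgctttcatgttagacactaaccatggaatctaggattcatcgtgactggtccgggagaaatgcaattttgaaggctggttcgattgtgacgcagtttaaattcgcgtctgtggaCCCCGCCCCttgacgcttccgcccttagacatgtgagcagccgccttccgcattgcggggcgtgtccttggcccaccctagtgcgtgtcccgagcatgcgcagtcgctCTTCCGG
Mrpl55: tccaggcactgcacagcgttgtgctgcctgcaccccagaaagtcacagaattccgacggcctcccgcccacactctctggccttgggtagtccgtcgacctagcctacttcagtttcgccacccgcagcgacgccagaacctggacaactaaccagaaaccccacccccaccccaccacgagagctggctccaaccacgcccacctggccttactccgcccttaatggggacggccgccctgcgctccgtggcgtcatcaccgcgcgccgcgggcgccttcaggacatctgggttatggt
Mrpl12: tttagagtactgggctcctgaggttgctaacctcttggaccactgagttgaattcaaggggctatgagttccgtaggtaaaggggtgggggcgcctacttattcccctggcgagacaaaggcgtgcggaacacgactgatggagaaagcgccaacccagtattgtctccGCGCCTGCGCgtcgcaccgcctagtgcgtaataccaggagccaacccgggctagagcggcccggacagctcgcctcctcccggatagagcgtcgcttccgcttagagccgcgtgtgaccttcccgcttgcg
Mrps11: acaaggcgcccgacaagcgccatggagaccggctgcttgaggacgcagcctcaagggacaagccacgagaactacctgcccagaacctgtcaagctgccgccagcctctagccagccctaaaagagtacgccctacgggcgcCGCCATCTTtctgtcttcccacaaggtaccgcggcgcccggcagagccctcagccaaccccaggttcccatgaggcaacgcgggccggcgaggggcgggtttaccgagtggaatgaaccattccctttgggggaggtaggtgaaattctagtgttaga
The fold changes were also split by motif, with no test. The log2 fold change had a median of 0.11 in the 13 members with the NRF1 letters and 0.10 in the 55 without, 0.12 in the 25 with the ETS letters and 0.06 in the 43 without, 0.12 in the 8 with the YY1 letters and 0.10 in the 60 without, and 0.12 in the 13 with the SP1 letters and 0.10 in the 55 without.

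The libraries held between 30917613 and 48756794 counts, and levels are given as CPM (the share of a library's counts, as counts per 1000000) scaled by TMM factors of 0.974 to 1.03. A floor of 3 counts corresponded to 0.0596 to 0.0962 CPM. All 77 members passed the filter on low counts, as did 14165 genes in all, and the lowest count of any member was 64 (Mrpl53 in PSB-KD107 library 4). Of the myoblast markers, desmin (Des) was at 2784 to 3932 CPM, Myod1 at 399 to 1060 CPM and Pax7 at 26.8 to 68.8 CPM. The differentiation markers Myog and Myh3 were at 1175 to 2203 CPM and 11842 to 18255 CPM, so the cultures also expressed genes of differentiating muscle. The summed level of the 7 markers of the cells removed by the sort was 3.04 to 7.58 CPM in vehicle and 2.53 to 11.2 CPM in PSB-KD107, where library 4 held 8.36 CPM of Ly6a, the gene of Sca-1, against at most 1.29 CPM in any other library. Itgam, the gene of CD11b, went the other way, at 4.24, 2.72 and 1.92 CPM in vehicle and 2.64, 1.25 and 0.385 CPM in PSB-KD107. Of the 4 of these markers that were tested, 2 were higher and 2 lower with treatment. Ptprc, the gene of CD45, was at or near 0. The libraries numbered 1 stood apart in Myf5, a myoblast transcription factor, with 3.57 and 4.23 CPM against 18.6 to 40.9 CPM in the other libraries.

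No member passed the test between PSB-KD107 and vehicle, but more members were higher than lower with treatment. By edgeR's quasi-likelihood test with Benjamini-Hochberg adjustment, 0 of the 77 members and 0 of the 14165 genes (0.0%) had an adjusted p under 0.05, and the adjusted p of the members ran from 0.383 to 0.996. At an unadjusted p under 0.05, 5 members were higher (6.49%) and 0 were lower, against 6.47% and 2.93% of all genes (9.4% in either direction), so the share of higher members was that of the background. Leaving out each library in turn moved the 5 to between 0 and 9, with 0 without PSB-KD107 library 1, vehicle library 2 or vehicle library 4. DESeq2 called 480 genes (3.39%, and 2.46% in the higher direction), of which Mrpl47 was the 1 member, with an adjusted p of 0.0327. The fitted log2 fold change was above 0 for 55 of 77 members (71.4%) and for 49.9% of all genes. In 15 members (19.5%) all PSB-KD107 libraries lay above all vehicle libraries, against 9.2% of genes, and in 0 members did all lie below, against 6.59%. The sizes were small. The median log2 fold change was 0.06 over the members, a level 4.31% higher, beside -0.00074 over all genes tested, and 37 members lay within 0.1 of 0. The median was 0.020 without PSB-KD107 library 1, and 0.097 and 0.10 without PSB-KD107 library 4 and vehicle library 1.

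**Figure D1:**
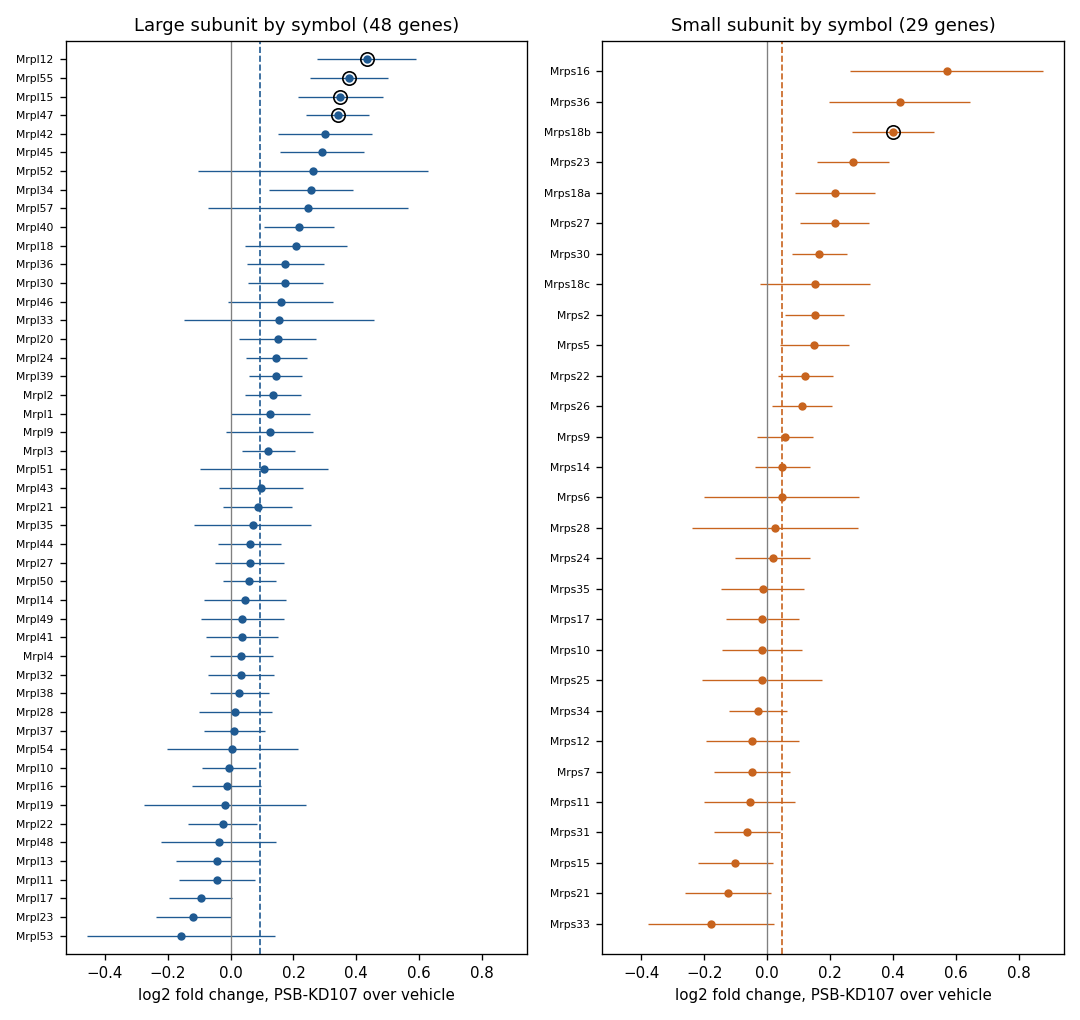
Log2 fold change of PSB-KD107 over vehicle from edgeR (x axis) for each member, large subunit on the left and small subunit on the right, with bars for 1 standard error, a dashed line at the subunit's median and a ring round the 5 members with an unadjusted p under 0.05. Most points lie right of 0, between -0.18 (Mrps33) and 0.57 (Mrps16), and many bars cross 0.

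Mrpl47 had the smallest p of the family. It encodes the counterpart of a bacterial large subunit protein near the exit of the peptide tunnel and lies at chr3:32725397-32737605 (GRCm38). Its level was 23.4, 23.1 and 23.5 CPM in vehicle libraries 1, 2 and 4 and 31.0, 28.5 and 29.1 CPM in the PSB-KD107 libraries. The vehicle libraries almost coincided, and every treated library was higher. The means were 23.3 ± 0.160 and 29.5 ± 1.32 CPM (SD, n = 3), 26.6% higher with treatment, and the log2 fold change was 0.34 with a standard error (SE) of 0.10 and an adjusted p of 0.383 by edgeR's quasi-likelihood test. Exons of Mrpl47 overlap those of Actl6a and Ndufb5 on the opposite strand. How the counting used strand is not given in the sources used here.

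Mrpl55, Mrpl12 and Mrpl15 were the other large subunit members with an unadjusted p under 0.05, and all descend from bacterial proteins. Mrpl55 (chr11:59202486-59206134) was at 16.1, 16.4 and 16.1 CPM in vehicle and at 22.3, 19.0 and 21.8 CPM in PSB-KD107, with a log2 fold change of 0.38 (SE 0.12). The groups did not overlap, and the treated libraries were spread more widely than the vehicle ones. Mrpl12 (chr11:120484613-120489065) forms the flexible stalk that recruits translation factors and is also known to bind the mitochondrial RNA polymerase. It was at 82.5, 66.9 and 64.7 CPM in vehicle and at 111.3, 81.3 and 96.4 CPM in PSB-KD107, a log2 fold change of 0.43 (SE 0.16). Here the groups met, since vehicle library 1 lay above PSB-KD107 library 2. Mrpl15 (chr1:4773206-4785739) was at 44.5, 44.4 and 38.5 CPM in vehicle and at 55.8, 46.1 and 60.4 CPM in PSB-KD107, a log2 fold change of 0.35 (SE 0.13), with the lowest treated library just above the highest vehicle one. The adjusted p-values were 0.433, 0.475 and 0.508 in that order by edgeR's quasi-likelihood test.

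In the small subunit the member with the smallest p was Mrps18b (chr17:35910379-35916389), 1 of 3 paralogs of a bacterial protein. It was at 17.4, 19.5 and 18.5 CPM in vehicle and at 27.1, 23.8 and 22.1 CPM in PSB-KD107, without overlap. Its log2 fold change was 0.40 (SE 0.13), with an adjusted p of 0.432 by edgeR's quasi-likelihood test. Ppp1r10, which starts 45 bases away in the opposite direction, had a log2 fold change of -0.35 (SE 0.19). The paralogs have separate places in the ribosome, Mrps18a in the large subunit and Mrps18c, like Mrps18b, in the small one. Mrps18a was at 28.4, 24.3 and 24.3 CPM in vehicle and at 33.1, 27.8 and 28.5 CPM in PSB-KD107 (log2 fold change 0.22, SE 0.13). Mrps18c was at 24.5, 19.8 and 18.1 CPM and at 25.2, 19.4 and 24.7 CPM (0.15, SE 0.17). The groups of both overlapped, with vehicle library 1 the highest of its group. Mrps30, which also sits in the large subunit despite its name, varied least of all members in vehicle, at 34.9, 35.2 and 35.1 CPM in vehicle and 39.8, 38.3 and 39.9 CPM in PSB-KD107 (0.17, SE 0.09), without overlap.

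**Figure D2:**
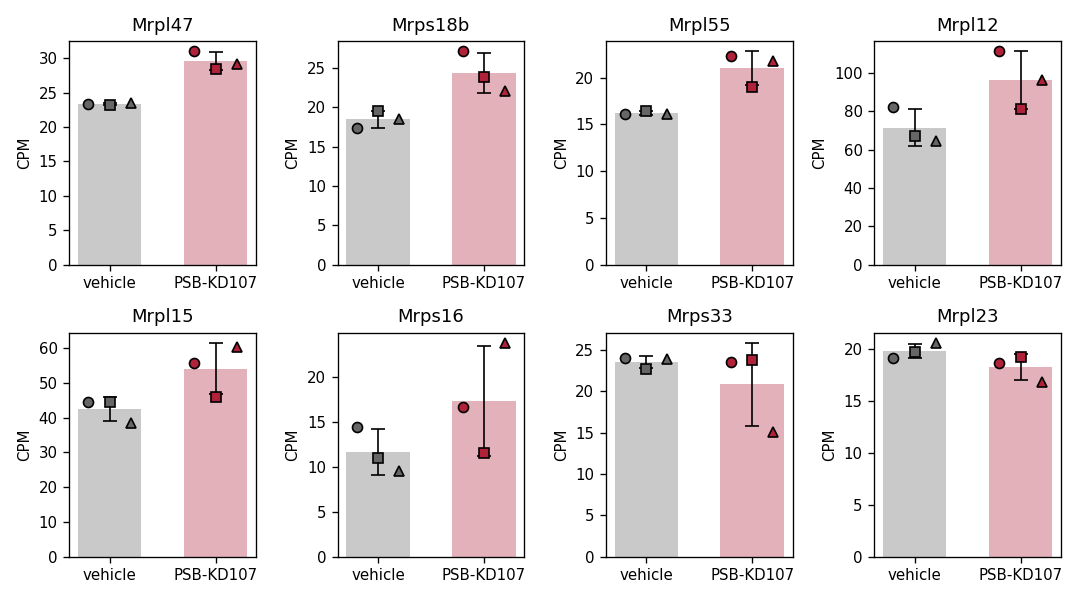
TMM-scaled CPM (y axis, from 0) of 8 members in vehicle (grey) and PSB-KD107 (red), with bars for the mean, error bars for the SD over 3 libraries, and circles, squares and triangles for libraries 1, 2 and 4. Mrpl47, Mrps18b, Mrpl55 and Mrpl15 do not overlap between groups, Mrps16 ranges from 11.5 to 23.8 CPM in PSB-KD107, and library 4 is the lowest point of Mrps33 and Mrpl23.

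The member with the largest fitted change was the least certain of the upper ones. Mrps16, a small subunit protein of bacterial descent, was at 14.5, 10.9 and 9.55 CPM in vehicle and at 16.7, 11.5 and 23.8 CPM in PSB-KD107, a log2 fold change of 0.57 with an SE of 0.31. PSB-KD107 library 4 alone reached the top value, and library 2 lay inside the vehicle range. Mrps36 is listed as a ribosomal protein but is known as a component of the 2-oxoglutarate dehydrogenase complex of the citric acid cycle. Its level was 18.4, 13.3 and 12.2 CPM in vehicle and 22.2, 15.6 and 21.0 CPM in PSB-KD107 (0.42, SE 0.22), with overlap. Mrps23, a protein found only in the mitochondrial ribosome, was at 62.6, 56.0 and 53.9 CPM and at 73.0, 61.9 and 73.6 CPM (0.27, SE 0.11), where PSB-KD107 library 2 lay just below vehicle library 1.

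The lower members were lower by less than their error. Mrps33 was at 24.0, 22.7 and 23.9 CPM in vehicle and at 23.6, 23.8 and 15.0 CPM in PSB-KD107 (log2 fold change -0.18, SE 0.20). Mrpl53, the least abundant member, was at 3.27, 2.63 and 2.88 CPM and at 3.00, 3.11 and 1.76 CPM (-0.16, SE 0.30). In both, PSB-KD107 library 4 was the low one and the other treated libraries lay within the vehicle range. Mrps21 and Mrpl23 had log2 fold changes of -0.12 (SE 0.14) and -0.12 (SE 0.12), Mrps15 and Mrpl17 of -0.10 (SE 0.12) and -0.10 (SE 0.10), Mrps31 of -0.06 (SE 0.10) and Mrpl11 of -0.04 (SE 0.12). For each of these 6, PSB-KD107 library 4 was again the lowest of all libraries. Without it, the log2 fold changes of Mrpl11, Mrpl53 and Mrps33 were 0.02, 0.06 and 0.0087.

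The 15 members whose groups did not overlap had log2 fold changes of 0.11 to 0.40. Those of the large subunit were Mrpl47, Mrpl55, Mrpl15, Mrpl40, Mrpl34, Mrpl39, Mrpl2, Mrpl24 and Mrpl3, and those of the small subunit by name were Mrps18b, Mrps27, Mrps30, Mrps2, Mrps22 and Mrps26. An exact permutation test of 3 against 3 libraries gave p = 0.1 for such a member, the smallest value it can give. Most of these differences were slight beside a narrow spread. Mrpl2, a protein at the peptidyl transferase center, was at 40.7, 43.4 and 41.8 CPM in vehicle and at 45.1, 45.3 and 47.8 CPM in PSB-KD107, a log2 fold change of 0.14 (SE 0.09).

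The subunits were then compared. By symbol, 38 of 48 large subunit members and 17 of 29 small subunit members had a log2 fold change above 0, with medians of 0.09 and 0.05, or levels 6.63% and 3.29% higher. Placing Mrps30 and Mrps18a in the large subunit, where they reside, and leaving out Mrps36 gave 40 of 50 and 14 of 26, with medians of 0.10 and 0.02. The groups without overlap were shared alike, at 9 of 48 large and 6 of 29 small subunit members. The large minus small difference of the medians by symbol was 0.046, and leaving out each library in turn gave 0.017 (without vehicle library 4) to 0.077 (without PSB-KD107 library 2), above 0 each time. It was 0.021 without PSB-KD107 library 4, and 0.075 without PSB-KD107 library 1. With only the 4 libraries numbered 1 and 2 it was -0.025 with a replicate block and -0.020 without, so the order of the subunits turned. The separate medians were lowest without PSB-KD107 library 1, at 0.02 for the large and -0.05 for the small subunit, with 43 of 77 members above 0.

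Members classed as conserved from bacteria and members classed as mitochondria-specific were counted apart. Mrps18b, a paralog of a bacterial protein, was classed as mitochondria-specific and had the largest log2 fold change of that class, 0.40. Of the 46 conserved members 31 were higher (median 0.05), and of the 30 mitochondria-specific members 23 were higher (median 0.10). Among the latter, 18 of 20 in the large subunit and 5 of 10 in the small subunit were higher (medians 0.10 and 0.05). Among the conserved members, 22 of 30 in the large subunit and 9 of 16 in the small subunit were higher (medians 0.10 and 0.02). Within the large subunit the medians were thus alike. None of the 20 mitochondria-specific members of the large subunit had an unadjusted p under 0.05, and the 2 lower ones included Mrpl53.

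Summed over members, the large subunit stood at 2015, 1812 and 1786 CPM in vehicle and at 2173, 1931 and 1972 CPM in PSB-KD107. The small subunit stood at 1017, 974 and 987 CPM and at 1116, 1029 and 973 CPM. Both sums were highest in PSB-KD107 library 1, and vehicle library 1 was the highest vehicle library in both. All members together summed to 2864 ± 146 CPM with vehicle, compared with 3065 ± 194 after PSB-KD107 (SD, n = 3), 7.03% higher, but the groups overlapped, since vehicle library 1, at 3032 CPM, lay above PSB-KD107 libraries 2 and 4, at 2960 and 2945 CPM. The ratio of the large to the small subunit sum was 1.98, 1.86 and 1.81 in vehicle and 1.95, 1.88 and 2.03 in PSB-KD107, and the groups overlapped.

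**Figure D3:**
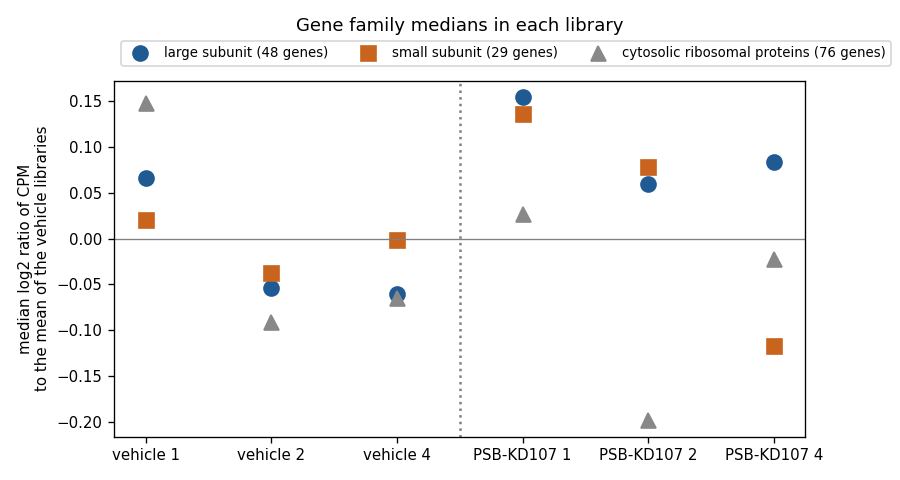
Median log2 ratio of CPM to the mean of the vehicle libraries (y axis) in each library (x axis) over the 48 large subunit members (circles), the 29 small subunit members (squares) and 76 cytosolic ribosomal protein genes (triangles). The large subunit lies at 0.15, 0.06 and 0.08 in PSB-KD107 and at 0.07, -0.05 and -0.06 in vehicle, while the small subunit lies apart from it in PSB-KD107 library 4, at -0.12.

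The libraries also differed within groups. PSB-KD107 library 1 was the highest of the 6 libraries for 35 of 77 members, whereas this held for 16.4% of all genes. PSB-KD107 library 4 was the lowest for 27 members (35.1%, against 26.1% of genes). In 22 members (28.6%, against 17.5% of genes) vehicle library 1 and PSB-KD107 libraries 1 and 4 were the highest 3, a split that crosses the groups. Mrpl52, a mitochondria-specific protein, varied most in vehicle, at 24.3, 12.6 and 11.0 CPM in vehicle and 23.5, 13.5 and 20.4 CPM in PSB-KD107. Mrpl33 followed, at 43.5, 25.8 and 22.5 CPM and at 41.7, 25.8 and 34.7 CPM. Mrpl57 was next, at 27.2, 17.4 and 14.1 CPM and at 27.9, 16.0 and 25.7 CPM. Mrpl12, Mrps16, Mrps23, Mrps36, Mrps18a and Mrps18c, described as higher, were among the 22. The coefficient of variation in vehicle had a median of 6.35% over members and ran from 0.535% (Mrps30) to 45.5% (Mrpl52).

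**Figure D4:**
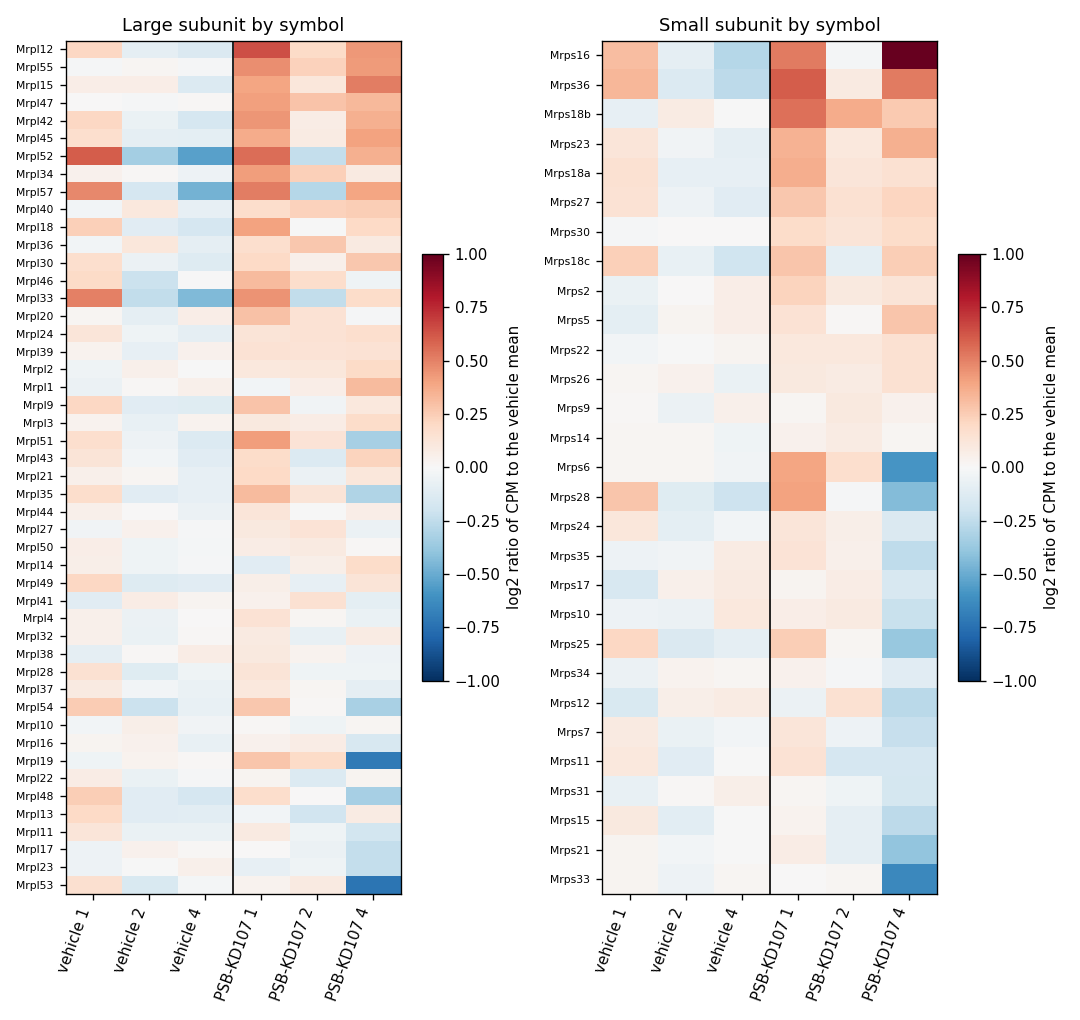
Log2 ratio of CPM to the vehicle mean for each member (rows, ordered by log2 fold change) in each library (columns), red above and blue below the vehicle mean, with the color scale ending at 1 and -1. PSB-KD107 library 1 is the highest column for 35 members, and library 4 holds both strong red rows at the top and the bluest rows at the bottom, such as Mrps33 and Mrpl53.

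Levels were compared between genes only per length, as fragments per kilobase of the union of exons, with the library scaled as for CPM (FPKM), in vehicle. Mrps21 was highest, at 66.8 ± 1.23, followed by Mrpl12 (46.6 ± 6.31), Mrpl18 (37.1 ± 5.88), Mrps23 (36.9 ± 2.89) and Mrpl2 (35.9 ± 1.17) (SD, n = 3). The last 3 differed by less than their spread. The lowest were Mrpl23 (4.06 ± 0.145), Mrps16 (4.05 ± 0.881), Mrps10 (3.89 ± 0.247) and Mrpl53 (3.71 ± 0.402), which also could not be told apart. Mrps7, a small subunit protein of the head domain, was next in its subunit after Mrps23, with a CPM of 63.3, 56.7 and 58.6 in vehicle and 64.6, 57.5 and 50.6 in PSB-KD107 (log2 fold change -0.05, SE 0.12). The median level was 17.1 for the large and 11.5 for the small subunit. This order depended on the length used, since over coding length the medians were 55.0 and 48.5 and Mrpl51, at 207, was highest, although Mrpl53 remained lowest at 8.27.

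The cytosolic ribosomal proteins, the most similar family, are encoded in the nucleus but serve translation in the cytosol. Of 76 such genes, 64 were lower and 12 higher. Their log2 fold changes had a median of -0.07, and 0 had an unadjusted p under 0.05. In 6 of them, all treated libraries lay below all vehicle libraries, against 6.59% of genes. Rplp0, of the cytosolic stalk, was at 1259, 1166 and 1148 CPM in vehicle and 1118, 1042 and 958 CPM in PSB-KD107 (-0.20, SE 0.11). The direction of this family rested on single libraries, with 38 genes higher and 38 lower without vehicle library 1, and 35 higher and 41 lower without PSB-KD107 library 2. The corresponding count of higher mitochondrial members was 58 of 77 without vehicle library 1 and 54 without PSB-KD107 library 2. Without PSB-KD107 library 1 it was 43 of 77, with 14 of 29 in the small subunit, so the mitochondrial direction also leaned on 1 library.

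Other parts of the mitochondrial translation system were counted from lists of known components. Of 5 further proteins of the mitochondrial ribosome, 2 were higher (median log2 fold change -0.06), among them Dap3 (0.09, SE 0.09), while Ptcd3 was at -0.19 (SE 0.14). Chchd1, a small subunit protein, was at 28.3, 11.2 and 11.8 CPM in vehicle and 29.1, 12.3 and 26.8 CPM in PSB-KD107, the same split of libraries as in Mrpl52. Mrpl58, a peptidyl-tRNA hydrolase built into the large subunit, is listed under its older symbol Ict1 and so was not a member. Ict1 was at 26.6, 24.5 and 24.0 CPM in vehicle and 32.3, 28.9 and 21.2 CPM in PSB-KD107 (0.13, SE 0.18). Of 14 translation factors tested, 12 were higher (median 0.14) and 0 had an unadjusted p under 0.05. Mtres1, a rescue factor for stalled ribosomes that is listed under an older symbol, had a log2 fold change of 0.29 (SE 0.12). Guf1, a back-translocating GTPase, had a log2 fold change of 0.20 (SE 0.12) and Mtfmt, which formylates the initiator tRNA, of -0.30 (SE 0.17).

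Of 27 assembly and rRNA modification factors, 18 were higher (66.7%, against 49.9% of all genes), with a median of 0.05. Only 1, Mrm1, had an unadjusted p under 0.05 by edgeR's quasi-likelihood test. This share of 3.70% was below the 6.47% of all genes that were higher at that threshold. Mrm1 methylates the large mitochondrial rRNA and was at 4.36, 5.16 and 4.19 CPM in vehicle and 7.57, 6.67 and 8.28 CPM in PSB-KD107, without overlap. Its log2 fold change was 0.72 (SE 0.19), with an adjusted p of 0.345 by edgeR's quasi-likelihood test and 0.0205 by DESeq2. Nsun4, an rRNA methyltransferase that also takes part in joining the subunits, was at 42.7, 39.0 and 36.9 CPM and at 46.3, 44.5 and 43.9 CPM (0.18, SE 0.10). Mrm3, a further methyltransferase of the large rRNA, had a log2 fold change of 0.22 (SE 0.14).

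The rRNAs and mRNAs made inside the organelle were also measured. The small subunit rRNA mt-Rnr1 was at 97.6, 82.2 and 52.4 CPM in vehicle and 186.9, 111.9 and 110.8 CPM in PSB-KD107, without overlap (0.82, SE 0.30, adjusted p 0.487 by edgeR's quasi-likelihood test). The large subunit rRNA mt-Rnr2 had a log2 fold change of 0.60 (SE 0.43). Both were read from libraries enriched for poly(A) RNA, which captures rRNA poorly. Of 10 mitochondrially encoded mRNAs tested, 8 were higher (median 0.13) and 0 had an unadjusted p under 0.05. mt-Nd2, a complex I subunit, was at 733, 646 and 506 CPM and at 961, 795 and 530 CPM (0.28, SE 0.25), with PSB-KD107 library 4 inside the vehicle range. For mt-Nd1, mt-Nd4, mt-Nd5, mt-Cytb and mt-Co1, PSB-KD107 library 4 lay below all vehicle libraries. Summed, the mitochondrially encoded mRNAs were at 7023, 7263 and 5745 CPM in vehicle and 8240, 8104 and 4884 CPM in PSB-KD107. The lowest sum was that of PSB-KD107 library 4. mt-Co3 (0.35, SE 0.38), mt-Atp6 (0.35, SE 0.41) and mt-Co2 (0.03, SE 0.33) were counted at under 2 CPM in every library.

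Among 17 regulators of mitochondrial transcription and biogenesis, 12 were higher (median 0.13) and 4 of these had an unadjusted p under 0.05, against 6.47% of all genes. Myc, a growth-related transcription factor, was at 13.8, 14.2 and 14.2 CPM in vehicle and 23.8, 20.1 and 27.3 CPM in PSB-KD107 (0.76, SE 0.15). Ppargc1a, the coactivator PGC-1α that drives mitochondrial biogenesis, was at 6.35, 10.1 and 7.07 CPM and at 17.8, 23.1 and 53.0 CPM (2.00, SE 0.46). Esrra, a nuclear receptor that acts with PGC-1α, was at 62.6, 58.1 and 56.1 CPM and at 81.7, 75.2 and 98.0 CPM (0.53, SE 0.12). None of the 3 overlapped between groups, and the log2 fold changes of Myc and Ppargc1a lay beyond the range of the members. Their adjusted p-values were 0.228, 0.264 and 0.281 by edgeR's quasi-likelihood test and 0.00119, 0.00149 and 0.0285 by DESeq2, which called these 3 of the list. The 5 lower genes of the list included Polrmt, the mitochondrial RNA polymerase (-0.35, SE 0.18), Tfb2m (-0.16, SE 0.17) and Tfam (-0.15, SE 0.16). Nrf1 and Yy1, whose promoter letters were counted above, were at 0.13 (SE 0.11) and -0.04 (SE 0.11).

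Neighboring genes were examined because members often share a start region with another gene. Among 25 members with a tested gene starting in the opposite direction within 500 bases, 19 were higher (median log2 fold change 0.061). Of the other 52 members 36 were higher (median 0.064), so the medians were alike. Of the 25 partners 11 were higher (median -0.05), beside 49.9% of all genes. Mrpl46 and Mrps11 face each other across overlapping starts and were each counted both as a member and as a partner. They had log2 fold changes of 0.16 (SE 0.17) and -0.05 (SE 0.14). Exons of 32 members overlap another gene, and their counts are less certain for that reason. Of these, 20 overlap a protein-coding gene on the opposite strand and 4 overlap one on the same strand. Mrpl53, the least abundant member, is among the 4. The members lie on 17 chromosomes, with 10 of them on chromosome 11.

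Muscle differentiation markers were lower in the PSB-KD107 libraries. Myog, Mymk (listed as Tmem8c) and Myh3 summed to 20680 to 21603 CPM in vehicle and 14525 to 17433 CPM in PSB-KD107, without overlap, and all 3 of the list were lower. Pax7, the satellite cell transcription factor, was at 68.8, 49.9 and 60.0 CPM in vehicle and 34.0, 26.8 and 35.1 CPM in PSB-KD107 (-0.90, SE 0.17). The adjusted p of Pax7 was 0.209 by edgeR's quasi-likelihood test and 0.000665 by DESeq2. It had the smallest p of the 6 myoblast markers, of which 3 were lower and 3 higher, with a median log2 fold change of 0.02. Myf5, Itgb1 and Des were at 0.73 (SE 0.92), 0.30 (SE 0.24) and 0.15 (SE 0.18), and Myod1 and Itga7 at -0.59 (SE 0.35) and -0.11 (SE 0.15). The 6 together summed to 5600 to 5961 CPM in vehicle and 5404 to 6435 CPM in PSB-KD107. The part of these markers, and of Ly6a in PSB-KD107 library 4, in the levels of the members was not tested, and in these bulk samples fewer cells of a type and less RNA per cell cannot be told apart.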

How the data were processed

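The authors prepared 6 libraries from polyadenylated RNA, 3 for vehicle and 3 for PSB-KD107, with a directional kit and paired-end reads aligned with STAR 2.3.0 to mm10 (GRCm38). The deposited table held raw counts per gene, made by the authors without normalization. The counting program, its annotation and its strand setting are not given in the sources used here. Columns were assigned by name, and those numbered 4 were assigned to a group only. Coordinates and lengths came from GENCODE M21.

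Counts were filtered with filterByExpr, scaled by TMM and tested with edgeR 4.0.16 (quasi-likelihood, two-sided, R 4.3.3, Benjamini-Hochberg over 14165 genes, threshold 0.05). DESeq2 1.42.0, limma 3.58.1 (voom), RLE factors, no scaling factor, other low-count filters, a replicate block and leaving out each library were alternatives. The scripts were tested on simulated data. Tables were handled in Python 3.11.15 with pandas 2.3.3. SDs are over libraries, and floors cover counting error only. The SEs of log2 fold changes were derived from edgeR's test, as the absolute log2 fold change divided by the square root of its F statistic. The p-values set the difference between groups against the spread between these libraries. In edgeR that spread is moderated across all genes tested, and the main fit used no replicate block.

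The members and lists were chosen with earlier results of these data known. Named were members with an unadjusted p under 0.05, the 4 highest and 4 lowest by log2 fold change in each subunit, the 3 highest and 2 lowest levels per length, the Mrps18 paralogs, Mrps30, Mrps36, Mrpl12 and Mrpl58, and the 3 smallest p-values of each list. Mrpl40, Mrpl34, Mrpl39, Mrpl24, Mrpl3, Mrps27, Mrps2, Mrps22, Mrps26, Mrpl52, Mrpl33, Mrpl57, Mrpl51, Mrpl46 and Mrps11 were named after their values were seen. So were mt-Nd1, mt-Nd4, mt-Nd5, mt-Cytb, mt-Co1, mt-Co2, Polrmt, Tfb2m, Tfam, Nrf1 and Yy1 of the lists.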

Additional observations from a re-analysis of the deposited data

How the results depend on the processing

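The lowest count of any member in a library was 64. The number of genes called was 0 in the fit described and 1 with library sizes alone, 8 without a low-count filter and 480 with DESeq2, which also called 1 member (Mrpl47, log2 fold change 0.33). RLE factors, an FPKM filter and limma-voom gave 0. With RLE factors 53 members were higher and with library sizes alone 62, where Mrps10 turned to 0.0028. The median of all genes was -0.015 and 0.014 in these fits.

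Libraries with the same number deviated together for 1 (r = 0.63) and 2 (r = 0.52) but not for 4 (r = -0.13), and PSB-KD107 libraries 2 and 4 were closest to vehicle libraries numbered 4 and 1, so the numbers were not taken to pair the libraries. A replicate block was fitted on the 4 libraries numbered 1 and 2, with 1 residual degree of freedom, and called 2456 genes and 3 members (Mrpl12, Mrpl47 and Mrps18b), with 17 members at an unadjusted p under 0.05. The same 4 libraries without the block gave 0 called genes and 1 member at an unadjusted p under 0.05, and a block over all 6 libraries gave 0 and 5. The 4-library fits with the block turned Mrpl53, Mrps10, Mrps31, Mrps33 and Mrps7 to 0.046, 0.13, 0.021, 0.019 and 0.023, and without the block to 0.049, 0.13, 0.019, 0.020 and 0.024. In both the small subunit median, 0.11 with the block and 0.10 without, lay above that of the large subunit, 0.08. The 4 libraries without a block and the block over all 6 were added after seeing the data.

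Leaving out each library in turn gave 0 to 9 members at an unadjusted p under 0.05, with 0 without PSB-KD107 library 1, vehicle library 2 or vehicle library 4 and 9 without PSB-KD107 library 2. The medians ranged from 0.020 to 0.10 for all members, from 0.022 to 0.14 for the large subunit and from -0.052 to 0.091 for the small subunit, and the members higher from 43 to 66. Mrpl11 ranged from -0.13 to 0.022, Mrpl53 from -0.30 to 0.060, Mrps10 from -0.078 to 0.077, Mrps33 from -0.29 to 0.0087 and Mrps7 from -0.16 to 0.036, and the cause was not tested.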
